A study of Homo sapiens with 18 samples.

Results

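The constitutive proteasome subunits are the standard protein parts of the 26S proteasome, read here as 34 messenger RNAs in 3 human cancer cell lines. The members were taken by gene symbol: 14 subunits of the 20S core (PSMA1 to PSMA7 and PSMB1 to PSMB7), 17 subunits of the 19S cap (PSMC1 to PSMC6 and 11 of the PSMD genes) and the assembly chaperones PSMD5, PSMD9 and POMP, without the immunoproteasome subunits. All 34 were listed in each table, among 25673 gene entries for RKO, 19881 for COLO 201 and 19977 for H1975, and all 34 passed the minimum mean of 1 TPM in each line. TPM, a level per length of transcript, are scaled so that each column adds up to 1000000. The lines come from colon cancer (RKO, COLO 201) and from lung cancer (H1975). The cells of every group carried puromycin resistance and tet-MUC1shRNA, an inducible short hairpin RNA against MUC1, the gene of a transmembrane mucin. They were kept in medium with 10% fetal bovine serum, EMEM for RKO and RPMI1640 for the other two lines, and given 500 ng/ml doxycycline, which switches the hairpin on, or 0.1% DMSO as the vehicle. Each line had 3 columns with doxycycline and 3 with vehicle, from cultures grown in triplicate. The arm was read from the column headings, since the sample labels give every culture the same agent; in RKO the vehicle heading names DOX with no sign and was taken as vehicle, as the treatment protocol gives no other condition. No time of treatment is given in the sources used here, no doxycycline column of a control hairpin was analysed here, and nothing states whether a line is 1 clone, so an effect of the hairpin and an effect of doxycycline itself cannot be told apart.

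The proteasome degrades proteins that carry ubiquitin chains. Its 20S core is a barrel of stacked rings, with outer rings of alpha subunits that gate the channel and inner rings of beta subunits. PSMB6, PSMB7 and PSMB5 cut proteins inside the barrel, after acidic, basic and hydrophobic residues. The 19S cap binds ubiquitin chains, removes them, unfolds the protein with a ring of ATPases and feeds it into the core. The subunits assemble in fixed numbers, and their genes are known to be induced together by the transcription factor NFE2L1 when proteasome activity falls short. PSMB5 carries the active site that bortezomib binds, and in immune signalling PSMB8 can take its place in new particles.

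MUC1, the target of the hairpin, was used to check the headings. It had 0.108, 0.105 and 0.204 TPM with doxycycline, against 15.2, 1.24 and 1.03 TPM with vehicle in RKO. In COLO 201 it had 2.03, 1.78 and 1.53 TPM with doxycycline, against 13.2, 15.0 and 13.6 TPM with vehicle. In H1975 it had 7.05, 9.56 and 7.44 TPM with doxycycline, against 101, 86.2 and 105 TPM with vehicle. The doxycycline columns were below every vehicle column in each line. Its change was called in each line on the deposited scale, but not in RKO after rescaling (-1.77, adjusted p = 0.14). With RKO vehicle column 1 left out, MUC1 fell under the minimum mean of 1 TPM and was not tested. The RKO call of MUC1 therefore rests on that column. In RKO vehicle column 1 stood apart from the other two vehicle columns, at 15.2 TPM of MUC1 and 16935 genes above 0, and 9 fibroblast and endothelial markers led by COL1A2 and COL1A1 added up to 183 TPM there. That marker sum was 0.00420 to 0.0199 TPM with doxycycline in RKO, 3 of the 9 markers reached a mean of 1 TPM, and CDH5 was at 0. Colon markers were low in RKO, where VIL1, KRT20 and GPA33 were at 0 and the 8 markers added up to 5.28 to 7.23 TPM with doxycycline and 4.98 to 7.40 TPM with vehicle. COLO 201 had the colon markers VIL1 and LGALS4, and H1975 had the lung markers KRT7, NKX2-1 and NAPSA. These lineage lists moved with the arms, without overlap: the 8 colon markers, with 6 above a mean of 1 TPM and none at 0, added up to 167 to 170.3 TPM with doxycycline and 236 to 239.9 TPM with vehicle in COLO 201. The 7 lung markers, with 3 above a mean of 1 TPM and SFTPC at 0, added up to 2051 to 2186 TPM with doxycycline and 2576 to 3142 TPM with vehicle in H1975. Other lists moved too: the 7 leukocyte and erythroid markers, led by LYZ, with HBB at 0 and 2 of 7 above a mean of 1 TPM, added up to 594 to 626 TPM with doxycycline and 1219 to 1223 TPM with vehicle in COLO 201. The fibroblast and endothelial list added up to 17.2 to 20.9 TPM with doxycycline and 45.2 to 47.3 TPM with vehicle in H1975, with 2 of 8 listed markers above a mean of 1 TPM and DCN at 0. Some lists rose, without overlap. In COLO 201 the lung list added up to 12.4 to 12.985 TPM with doxycycline and 9.92 to 10.8 TPM with vehicle. The fibroblast and endothelial list there had 1.51 to 1.79 TPM with doxycycline and 0.744 to 0.786 TPM with vehicle. The colon list in H1975 had 19.3 to 20.8 TPM with doxycycline and 14.2 to 15.8 TPM with vehicle. At most 1 marker of each list reached a mean of 1 TPM. The RKO lung list and H1975 leukocyte and erythroid list were lower. The part of these markers in the results was not tested. In bulk RNA, fewer cells of a type and less RNA per cell cannot be told apart.

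PSMB5 fell in every line while most other proteasome genes rose in COLO 201 and were mostly not called in H1975 and RKO. Changes are doxycycline over vehicle on the log2(TPM + 1) scale, tested with limma and adjusted by the Benjamini-Hochberg method over all genes tested in the line. A gene is called at an adjusted p under 0.05. In RKO 0 of 34 members rose and 5 fell, in COLO 201 29 rose and 1 fell, and in H1975 11 rose and 1 fell. Of all tested genes, 2.09% rose and 16.1% fell in RKO, 45.9% rose and 15.0% fell in COLO 201, and 23.9% rose and 14.6% fell in H1975. The 29 rises in COLO 201 are thus a larger share than that of all genes, the 5 falls in RKO are near the share of all genes, and the 11 rises in H1975 are a somewhat larger share. The median change of the members was -0.48 in RKO, where the median of all tested genes was -0.26. It was 0.31 in COLO 201, beside 0.12 for all genes, and 0.13 in H1975, beside 0.06.

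**Figure D1:**
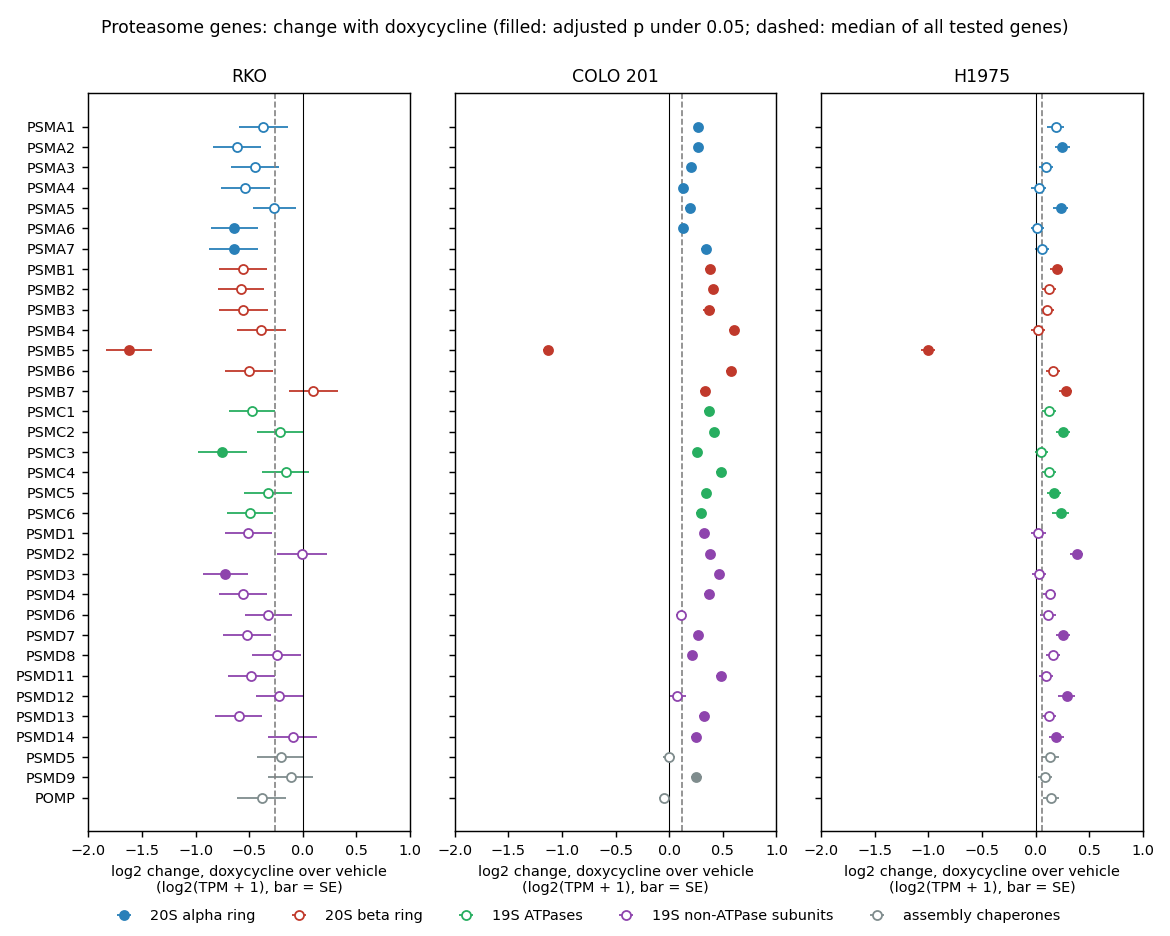
Log2 change of each of the 34 proteasome genes, doxycycline over vehicle, in the 3 lines, with bars for the SE, filled points for adjusted p under 0.05 and a dashed line for the median of all tested genes. PSMB5 lies at -1.62 in RKO, -1.13 in COLO 201 and -1.002 in H1975, the lowest point of each panel, while the other points lie mostly left of 0 in RKO and right of 0 in COLO 201 and H1975. After rescaling of the columns, 10 of 34 changes are above 0 in RKO, 27 in COLO 201 and 28 in H1975.

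PSMB5 encodes the beta subunit with chymotrypsin-like activity and lies on the minus strand of chr14:23016543-23035230 (GRCh38). In RKO it had 14.4, 19.5 and 16.9 TPM with doxycycline, against 55.0, 57.6 and 48.7 TPM with vehicle. COLO 201 had 35.0, 33.1 and 34.5 TPM with doxycycline, against 76.1, 77.2 and 75.3 TPM with vehicle. H1975 had 71.1, 69.8 and 67.6 TPM with doxycycline, against 139, 136 and 145 TPM with vehicle. No doxycycline column reached the lowest vehicle column in any line. The mean with doxycycline, as a share of the vehicle mean, was 31.5% for RKO, 44.9% for COLO 201 and 49.6% for H1975. Its log2 change was -1.62 (SE 0.21, adjusted p = 6.6e-06) in RKO, with a 95% interval of -2.06 to -1.18. The change was -1.13 (SE 0.04, adjusted p = 7.8e-10) in COLO 201, with an interval of -1.22 to -1.05, and -1.002 (SE 0.06, adjusted p = 6.9e-08) in H1975, with an interval of -1.14 to -0.87. Without RKO vehicle column 1 the change in RKO was -1.60. The exact two-sided permutation test gave p = 0.1 in each line, the smallest that 3 columns against 3 allow. It was the lowest change of the 34 in each line and the only member called lower in all of them.

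**Figure D2:**
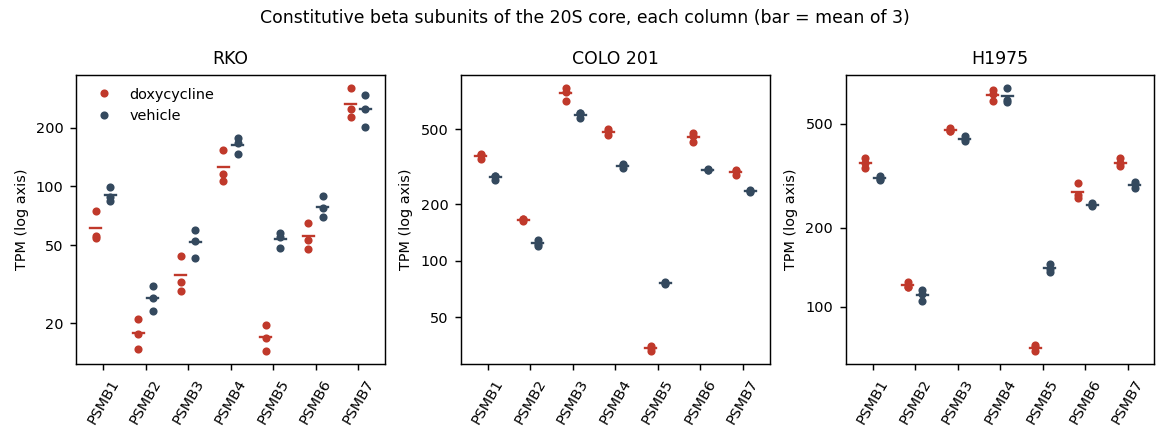
TPM of the 7 constitutive beta subunits in every column on a log axis, doxycycline left of vehicle, with a bar at the mean of 3 columns. PSMB5 lies at 14.4 to 19.5 TPM with doxycycline and 48.7 to 57.6 TPM with vehicle in RKO, and no other beta subunit has a gap of that size between the arms.

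A ratio within a column does not depend on how the column was scaled, so PSMB5 was set against its neighbours in the complex. In RKO PSMB5 made up 2.92, 2.79 and 3.12% of the summed TPM of the 7 beta subunits with doxycycline, against 8.67, 7.19 and 6.94% with vehicle. Its share in COLO 201 was 1.35, 1.36 and 1.29% with doxycycline, against 4.02, 3.96 and 3.84% with vehicle. In H1975 the share was 3.17, 3.00 and 2.94% with doxycycline, against 6.53, 6.37 and 6.47% with vehicle. The arms did not overlap in any line, and the vehicle share itself varied most in RKO. Against the geometric mean of the other 6 beta subunits, the log2 level of PSMB5 was -1.92 ± 0.08 with doxycycline and -0.67 ± 0.13 with vehicle in RKO (SD, n = 3 columns each). It was -3.47 ± 0.03 with doxycycline and -1.87 ± 0.03 with vehicle in COLO 201, and -2.24 ± 0.05 with doxycycline and -1.08 ± 0.03 with vehicle in H1975. These within-column differences were -1.25, -1.60 and -1.16 in RKO, COLO 201 and H1975. The lowest and highest were -1.47 and -1.20 for RKO, -1.61 and -1.46 for COLO 201, and -1.23 and -1.15 for H1975 when the neighbours were the other 13 core subunits, PSMB6 and PSMB7 only, or all other 33 members. In vehicle columns PSMB5 had rank 5 of the 7 beta subunits by TPM in RKO, rank 7 in COLO 201 and rank 6 in H1975. With doxycycline it was the last of the 7 in every line.

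**Figure D3:**
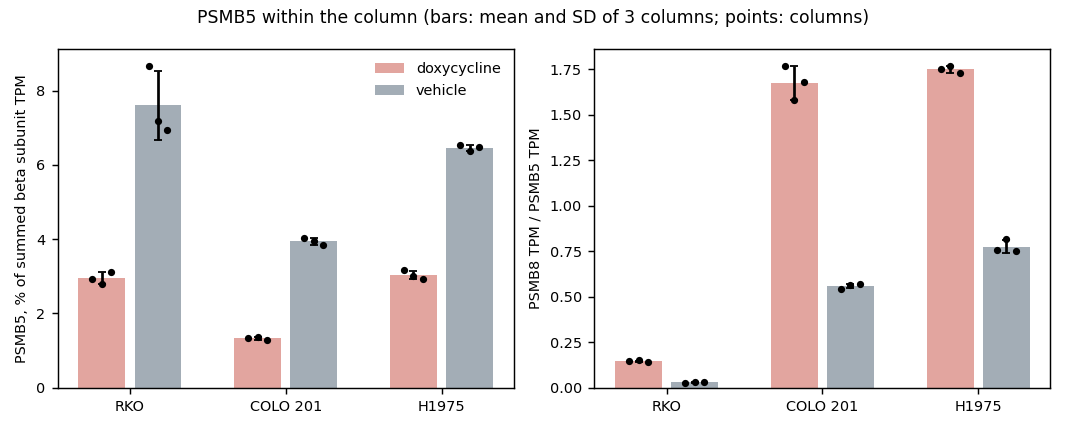
Left, PSMB5 as a percent of the summed TPM of the 7 beta subunits; right, the ratio of PSMB8 TPM to PSMB5 TPM. Bars are means, error bars SD and points the 3 columns, doxycycline left of vehicle: the PSMB5 share is lower and the PSMB8 ratio higher with doxycycline in each line, with no overlap of the arms. The ratio of PSMB10 to PSMB7, not shown, is lower with doxycycline in each line.

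The transcripts were searched for a 7-base word, ATCAGTA, chosen because it was the most over-represented, by ratio of shares, in the 3′ UTRs of genes lower in every line. It stood in the 3′ UTR of 81 of those 149 genes (54.4%; proteasome members and MUC1 left out), 926 of 9185 tested genes (10.1%), and 9 of 579 genes with a 3′ UTR within 20% of the 241 bases of that of PSMB5 (1.55%). The choice was made on these samples, so the shares are a description and support nothing. The windows shown are those of PSMB5, of MUC1, of NPLOC4 and UBA6 as related genes lower in every line, and of PSMD11 and PSMD14 as members that hold the word and rose in COLO 201. Each is 30 bases from GENCODE 29 transcripts on GRCh38, written 5′ to 3′, with the word in capitals.
PSMB5 3′ UTR, chr14:23025963-23025992 (minus strand): ccttcaattgtATCAGTActtttttttaag
PSMB5 coding sequence, chr14:23033415-23033444 (minus strand): caacatggtgtATCAGTAcaaaggcatggg
MUC1 coding sequence, chr1:155187760-155187789 (minus strand): gacacagttcaATCAGTAtaaaacggaagc
NPLOC4 3′ UTR, chr17:81558608-81558637 (minus strand): taataacagttATCAGTAattcctgcccag
UBA6 3′ UTR, chr4:67618848-67618877 (minus strand): ttaagggaaacATCAGTAagaaactgcact
PSMD11 3′ UTR, chr17:32482272-32482301 (plus strand): gttttggcaccATCAGTAtcaaatgtacaa
PSMD14 3′ UTR, chr2:161411648-161411677 (plus strand): tatttgaaaaaATCAGTAgcacaaatatat
The MUC1 window lies in its coding sequence. The sequence of the hairpin is not given in the sources used here, and whether the word has a part in the fall of PSMB5 was not tested.

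Of the 34 members, 6 held the word in the 3′ UTR (PSMA4, PSMA5, PSMB5, PSMC1, PSMD11 and PSMD14), and PSMA1, PSMA6 and PSMD3 held it in the coding sequence only. PSMB5 was the member with the word both in the coding sequence and in the 3′ UTR, where it began at base 111 of the annotated 3′ UTR. Without PSMB5, the 5 members with the word in the 3′ UTR had a lowest change of -0.54, a median of -0.47 and a highest of -0.09 in RKO. The same values were 0.13, 0.25 and 0.48 in COLO 201, and 0.03, 0.12 and 0.23 in H1975. The 28 members without it had medians of -0.47, 0.33 and 0.13 in these lines. Of those 5, 0 fell in any line, 0 rose in RKO, 5 rose in COLO 201 and 2 rose in H1975. Of the 28 without it, 4 fell and 0 rose in RKO, 24 rose in COLO 201 and 9 rose in H1975. Of all tested genes, 45.9% rose in COLO 201 and 23.9% in H1975. Among the related genes counted further on, NPLOC4 and UBA6 held the word in the 3′ UTR. Both fell in every line and so were among the genes from which the word was chosen, so this is a description. Others held it too, among them PAAF1, UCHL5 and TXNL1, none of which was called lower in every line, and DDI1, which was not tested. UCHL5 was called lower in RKO and COLO 201, while PAAF1 rose in COLO 201 and H1975.

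**Figure D4:**
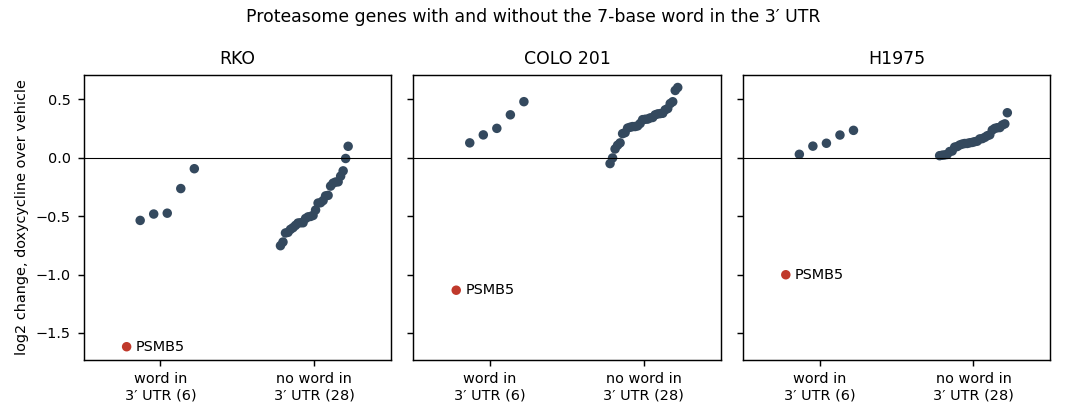
Log2 change of each proteasome gene, doxycycline over vehicle, for the 6 genes with the word ATCAGTA in the 3′ UTR and the 28 without, in the 3 lines; points are ordered by value within a group. PSMB5 lies far below all other points, and the other 5 genes with the word lie within the range of the genes without it.

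None of the other beta subunits fell as far as PSMB5 in any line. PSMB7, with trypsin-like activity, had 225, 319.8 and 249 TPM with doxycycline, against 200.4, 293 and 249.7 TPM with vehicle in RKO, where the arms overlapped. Its change there was 0.10 (SE 0.23, adjusted p = 0.79). Rescaling of the columns gave 0.40 and a call (adjusted p = 0.049; 0.0033 to 0.9 over all alternatives). PSMB7 rose by 0.33 (SE 0.04, adjusted p = 1.4e-05) in COLO 201 and by 0.28 (SE 0.06, adjusted p = 0.0029) in H1975. PSMB6, with caspase-like activity, had 460.2, 427 and 479.6 TPM with doxycycline, against 305, 308 and 302 TPM with vehicle in COLO 201. All 3 doxycycline columns lay above the vehicle columns, and the rise was 0.58 (SE 0.04, adjusted p = 5e-07). In RKO its change was -0.50 (SE 0.23, adjusted p = 0.11) and in H1975 0.16 (SE 0.07, adjusted p = 0.067), neither of which was called.

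PSMB4, a beta subunit without a catalytic site, had the largest rise of the members in COLO 201. It had 487, 465 and 503 TPM with doxycycline, against 321, 310.1 and 328 TPM with vehicle there, a rise of 0.60 (SE 0.04, adjusted p = 2e-07) with no overlap. The same gene had a change of -0.39 (SE 0.23, adjusted p = 0.23) in RKO and 0.02 (SE 0.07, adjusted p = 0.83) in H1975. PSMB1, likewise without a catalytic site, rose by 0.38 (SE 0.04, adjusted p = 8e-06) in COLO 201 and by 0.20 (SE 0.06, adjusted p = 0.024) in H1975. In RKO PSMB1 had 54.8, 74.6 and 55.5 TPM with doxycycline, against 87.9, 99.0 and 84.3 TPM with vehicle. Those arms did not overlap, yet its change of -0.56 was not called (adjusted p = 0.083). Of the 6 beta subunits other than PSMB5, 6 rose in COLO 201, 2 rose in H1975 and 0 rose or fell in RKO. Their median change was 0.39 in COLO 201, 0.14 in H1975 and -0.53 in RKO, where 5 of the 6 changes were below 0. With vehicle column 1 left out and the columns rescaled, 1 of the 6 rose and 4 fell in RKO. Of all genes, 29.1% rose and 29.8% fell in that setting.

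Of the 7 subunits of the alpha ring, 2 fell in RKO, 7 rose in COLO 201 and 2 rose in H1975. Rescaling left 3 rises in COLO 201, and the median change of the ring was -0.54 in RKO, 0.21 in COLO 201 and 0.10 in H1975. PSMA7, an alpha subunit, had 104, 154 and 117 TPM with doxycycline, against 203, 198 and 182 TPM with vehicle in RKO. It fell there by 0.64 (SE 0.23, adjusted p = 0.047) and rose in COLO 201 by 0.34 (SE 0.05, adjusted p = 6.2e-05). PSMA6 had 30.9, 43.7 and 32.2 TPM with doxycycline, against 54.5, 58.4 and 53.1 TPM with vehicle in RKO. These columns gave a change of -0.64 (SE 0.22, adjusted p = 0.044). In COLO 201 PSMA6 had 236, 229 and 233 TPM with doxycycline, against 211, 214 and 214 TPM with vehicle. That rise was small, 0.13 (SE 0.04, adjusted p = 0.0082), and after rescaling its change was -0.01 and not called. PSMA2 rose by 0.27 (SE 0.04, adjusted p = 0.00012) in COLO 201 and 0.25 (SE 0.07, adjusted p = 0.014) in H1975, and PSMA5 rose by 0.19 (SE 0.05, adjusted p = 0.0036) and 0.23 (SE 0.07, adjusted p = 0.018) in the same lines. The PSMA5 call in COLO 201 was lost after rescaling, at 0.06. The arms of PSMA6 and PSMA7 did not overlap in RKO. The summed TPM of the 20S core were 797, 1136 and 867 with doxycycline, against 1153, 1354 and 1191 with vehicle in RKO.

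The 6 ATPases of the cap unfold substrates. All 6 rose in COLO 201, by 0.26 to 0.48, and all 6 stayed called after rescaling. PSMC4 had 142, 136 and 148 TPM with doxycycline, against 100.3, 101 and 104 TPM with vehicle in COLO 201. The rise was 0.48 (SE 0.04, adjusted p = 1.1e-06), while its changes of -0.16 in RKO and 0.13 in H1975 were not called. PSMC2 rose by 0.42 (SE 0.04, adjusted p = 5.4e-06) in COLO 201. In H1975 PSMC2 had 184, 187 and 206 TPM with doxycycline, against 154, 167 and 161 TPM with vehicle. That was a rise of 0.26 (SE 0.07, adjusted p = 0.0086). PSMC5 and PSMC6 also rose in both lines, PSMC5 by 0.34 in COLO 201 and 0.17 in H1975 and PSMC6 by 0.29 and 0.24 (adjusted p = 7.4e-06, 0.045, 0.00016 and 0.031). PSMC3 had the lowest change of the cap in RKO. It had 23.4, 37.1 and 27.1 TPM with doxycycline, against 56.7, 49.3 and 42.1 TPM with vehicle there. Vehicle column 1 was the highest of these, and the change was -0.75 (SE 0.23, adjusted p = 0.021). In COLO 201 PSMC3 rose by 0.26 (SE 0.04, adjusted p = 0.00019). No other ATPase was called in RKO.

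Among the 11 subunits of the cap without ATPase activity, 1 fell in RKO, 9 rose in COLO 201 and 4 rose in H1975. PSMD3, a structural subunit of the lid, had 19.7, 25.6 and 22.2 TPM with doxycycline, against 35.1, 41.9 and 36.0 TPM with vehicle in RKO. It had 229, 222 and 229.6 TPM with doxycycline, against 163, 163 and 167 TPM with vehicle in COLO 201. The arms were apart in both lines but in opposite directions, with a change of -0.72 (SE 0.21, adjusted p = 0.018) in RKO and 0.46 (SE 0.04, adjusted p = 5e-07) in COLO 201. In H1975 PSMD3 changed by 0.03, which was not called (adjusted p = 0.77). PSMD11, another lid subunit, had 123, 129 and 121 TPM with doxycycline, against 90.0, 90.3 and 86.1 TPM with vehicle in COLO 201. Its rise was 0.48 (SE 0.04, adjusted p = 9.6e-07).

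PSMD2, a large subunit of the base that binds ubiquitin-like domains, had the largest rise of the members in H1975. It had 381, 374 and 398 TPM with doxycycline, against 282, 301 and 300.0 TPM with vehicle there. The change was 0.38 (SE 0.06, adjusted p = 0.00032), and PSMD2 also rose in COLO 201, by 0.38 (SE 0.04, adjusted p = 5.8e-06). In RKO its columns overlapped and its change was -0.01 (SE 0.23). PSMD12 had 102, 94.9 and 115 TPM with doxycycline, against 79.8, 89.7 and 84.1 TPM with vehicle in H1975. It rose by 0.29 (SE 0.08, adjusted p = 0.01) in that line, with all doxycycline columns above the vehicle columns, but was not called in COLO 201 at 0.07 (SE 0.08, adjusted p = 0.43), where the arms overlapped. PSMD7 and PSMD14 form the pair that holds the deubiquitinating site of the cap. PSMD7 rose by 0.27 (SE 0.04, adjusted p = 0.0001) in COLO 201 and 0.26 (SE 0.06, adjusted p = 0.0057) in H1975. PSMD14, the enzyme itself, rose by 0.25 (SE 0.04, adjusted p = 0.00041) and 0.19 (SE 0.07, adjusted p = 0.047), and its H1975 call was lost after rescaling at 0.15.

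Of the assembly chaperones PSMD5, PSMD9 and POMP, 0 were called in RKO or H1975 and 1 rose in COLO 201. PSMD9, which helps to build the base, rose there by 0.25 (SE 0.05, adjusted p = 0.00073) and lost the call after rescaling. POMP, which assists the beta rings and is degraded by the finished particle, had 373, 413 and 371 TPM with doxycycline, against 408, 399.6 and 389 TPM with vehicle in COLO 201. The arms overlapped and the change was -0.05 (SE 0.05, adjusted p = 0.37). After rescaling POMP and PSMD5 were called lower in COLO 201, at -0.18 and -0.13.

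**Figure D5:**
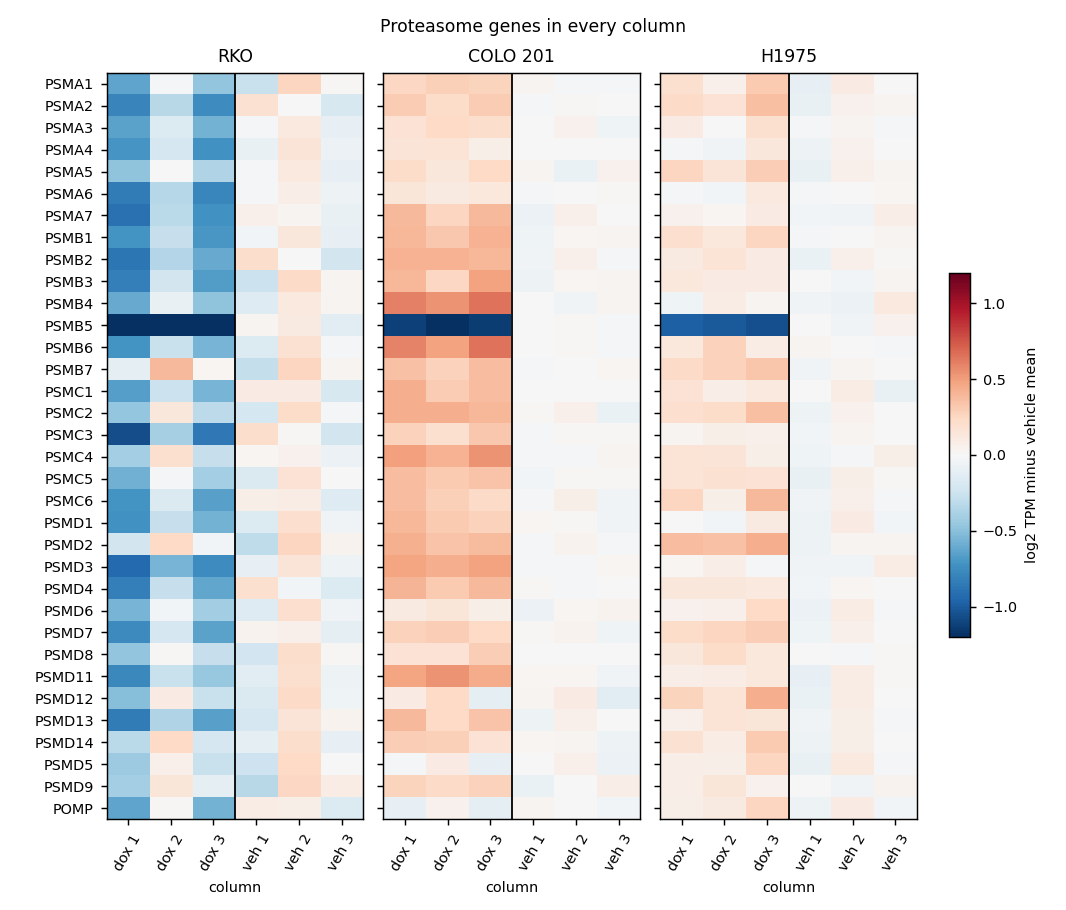
Log2 TPM of each proteasome gene minus its vehicle mean, in every column, doxycycline columns left of the vehicle columns in each panel; colours end at 1.2 on either side, so PSMB5 in RKO lies beyond the end of the scale. In RKO doxycycline column 2 has the highest of the 3 doxycycline values for all 34 genes, while in COLO 201 that place is spread over the 3 columns, with 11, 11 and 12 genes.

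Doxycycline column 2 held the highest doxycycline value of all 34 members in RKO, and vehicle column 2 the highest vehicle value of 28. The summed TPM of the 34 members were 1431, 2044 and 1581 with doxycycline and 2021, 2397 and 2091 with vehicle in RKO, so the arms overlapped. The sums were 7132, 6879.8 and 7157 with doxycycline and 5625, 5751 and 5674 with vehicle in COLO 201. In H1975 they were 6859.9, 6858 and 7163 with doxycycline and 6215, 6475 and 6484 with vehicle. Small noncoding RNA took 70.6% to 78.5% of TPM with doxycycline and 67.5% to 71.6% with vehicle in RKO, and the TPM of a column have a fixed sum. With those genes removed and the columns scaled again, the median change of all tested genes in RKO was -0.055, beside -0.255 as deposited. Beyond that, the part of these shares in the results was not tested. Mitochondrially encoded genes took 16.9% to 18.6% with doxycycline and 20.1% to 23.0% with vehicle in COLO 201, and 16.1% to 17.4% with doxycycline and 17.4% to 22.5% with vehicle in H1975. Without these genes the median change of all tested genes was 0.056 in COLO 201 and 0.0073 in H1975, beside 0.116 and 0.0593 as deposited. Given these shares, levels are not compared between tables.

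Rescaling each column by its median ratio put the median change of all tested genes at -0.0045 in RKO, -0.0067 in COLO 201 and 0.0202 in H1975. On that scale 1 member rose and 6 fell in RKO, beside 13.8% and 14.0% of all genes. In COLO 201 23 rose and 3 fell, beside 27.3% and 29.7%, and in H1975 10 rose and 1 fell, beside 21.2% and 18.5%. The median change of the members was -0.19 in RKO, 0.18 in COLO 201 and 0.09 in H1975. PSMB5 changed by -1.33, -1.26 and -1.04 in these lines. The RKO count depended on single columns. Without doxycycline column 1, doxycycline column 3 or vehicle column 2, 1 member was called lower, without vehicle column 3 it was 3, and without doxycycline column 2 it was 19. The count of all genes called lower moved too. It was 477 of 10651 without doxycycline column 1, 893 of 10615 without doxycycline column 3 and 1364 of 10526 without vehicle column 2. Without vehicle column 3 it was 1780 of 10561, and without doxycycline column 2 it was 2302 of 10570. With vehicle column 1 left out and the columns rescaled, 3 members rose and 17 fell in RKO, beside 29.1% and 29.8% of all genes, with a member median of -0.15. The rises there were PSMB7, PSMD2 and PSMD14. In H1975 the rises came to 4 without vehicle column 1 and to 6 without doxycycline column 1. Of all tested genes, 1618 of 12347 and 1949 of 12381 rose in these settings.

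Measured against the median of the members in the same line, 8 genes kept their side in every line. PSMB7, PSMC2, PSMC5 and PSMD2 lay above it, by 0.58, 0.27, 0.15 and 0.47 in RKO, by 0.02, 0.11, 0.03 and 0.07 in COLO 201 and by 0.15, 0.13, 0.04 and 0.26 in H1975. PSMA4, PSMA6, PSMB5 and PSMC3 lay below it. For PSMB5 the distance was -1.14 in RKO, -1.44 in COLO 201 and -1.13 in H1975, and for the other three it was -0.27 to -0.05. Opposite calls in RKO and COLO 201 were found for PSMA6, PSMA7, PSMC3 and PSMD3, each lower in RKO and higher in COLO 201.

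The difference between the lines was itself tested in a joint limma fit over all 18 columns, as the change in 1 line minus the change in another. That fit takes the same spread of a gene for all lines, though the members spread more in RKO. For PSMB5 the joint SE was 0.14 in every contrast, beside 0.21 in RKO, 0.04 in COLO 201 and 0.06 in H1975 in the fits per line. Calls against RKO may thus be too many, and calls of COLO 201 minus H1975 too few. COLO 201 minus RKO was called for 27 of 34 members, all positive, beside 48.5% of all genes tested in every line in either direction, and H1975 minus RKO for 26, all positive, beside 41.5%. After rescaling the counts were 20 and 17, beside 38.2% and 34.3%. COLO 201 minus H1975 was called for 1 member, PSMB4, beside 7.27% of all genes, and for 7 after rescaling, beside 26.4%. Without RKO vehicle column 1 the counts were 32, 30 and 2, beside 5314, 4805 and 1592 of all 9146 genes tested in every line. The contrasts against RKO share the RKO columns. PSMD3 differed most between COLO 201 and RKO, with changes of 0.46 and -0.72 and a difference of 1.18 (adjusted p = 4.3e-06). PSMB6 differed by 1.08 (adjusted p = 3.2e-05) and PSMA7 by 0.99 (adjusted p = 9.2e-05) in that contrast. Between H1975 and RKO, PSMA2 differed by 0.86, PSMB1 by 0.75 and PSMD3 by 0.75 (adjusted p = 0.00053, 0.001 and 0.00056). PSMB4 changed by 0.58 more in COLO 201 than in H1975 (adjusted p = 0.034).

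The fall of PSMB5 was compared between the lines in the same fit. COLO 201 minus RKO was 0.48 (adjusted p = 0.0098), but 0.06 after rescaling (adjusted p = 0.51, with 0.011 to 0.51 over all alternatives). H1975 minus RKO was 0.62 (adjusted p = 0.0027) and 0.29 after rescaling, called on both scales. The within-column difference from the other 6 beta subunits was closer in these lines, at -1.25 in RKO and -1.16 in H1975. With single columns left out it ran from -1.30 to -1.18 in RKO and from -1.19 to -1.14 in H1975, ranges that overlap. Whether the fall was smaller in H1975 thus depends on the measure. In COLO 201 the within-column difference was -1.60, and -1.62 to -1.59 with single columns left out, a larger fall than in RKO. The order of COLO 201 and RKO thus depends on the measure as well. COLO 201 minus H1975 was -0.13 (adjusted p = 0.66) and -0.22 after rescaling (adjusted p = 0.032, with 0.032 to 0.73 over all alternatives).

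The immunoproteasome subunits PSMB8, PSMB9 and PSMB10 take the places of PSMB5, PSMB6 and PSMB7 in particles made under interferon. PSMB8 had 2.10, 2.92 and 2.42 TPM with doxycycline, against 1.55, 1.76 and 1.55 TPM with vehicle in RKO. It had 61.9, 52.2 and 58.0 TPM with doxycycline, against 41.4, 43.4 and 42.9 TPM with vehicle in COLO 201. In H1975 it had 124, 123 and 117 TPM with doxycycline, against 105, 111 and 109.6 TPM with vehicle. Its change was 0.42 (SE 0.06, adjusted p = 4.6e-05) in COLO 201, where it rose, and was not called at 0.41 in RKO and 0.16 in H1975. After rescaling its change in RKO was 0.60 and called (adjusted p = 0.0024). PSMB9 had a mean under 1 TPM in RKO and was not tested there. The ratio of PSMB8 to PSMB5 TPM was 0.146 ± 0.00310 with doxycycline and 0.0302 ± 0.00190 with vehicle in RKO, 1.68 ± 0.0948 with doxycycline and 0.559 ± 0.0132 with vehicle in COLO 201, and 1.75 ± 0.0190 with doxycycline and 0.775 ± 0.0346 with vehicle in H1975 (SD, n = 3 columns each). The ratio of PSMB10 to PSMB7 was lower with doxycycline in RKO (0.0284, against 0.0497 with vehicle), COLO 201 (0.1595, against 0.1813) and H1975 (0.0568, against 0.0756). That of PSMB9 to PSMB6 was higher in RKO (0.0116, against 0.0079) and COLO 201 (0.1009, against 0.0666) and lower in H1975 (0.2057, against 0.2467). None of these arms overlapped. PSMB9 rose in COLO 201, with 45.9 ± 2.46 TPM with doxycycline, against 20.3 ± 0.551 TPM with vehicle and a change of 1.14 (SE 0.05, adjusted p = 4.2e-09). PSMB10 fell in RKO, with 7.53 ± 1.57 TPM with doxycycline, against 12.2 ± 1.90 TPM with vehicle and a change of -0.63 (SE 0.20, adjusted p = 0.024), a call that was lost after rescaling at -0.36, and rose by 0.14 (SE 0.05, adjusted p = 0.019) in COLO 201, likewise lost after rescaling at 0.01. None of these 3 genes was called in H1975, where limma gave 1 of them an unadjusted p under 0.05.

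Genes around the complex were counted list by list. The other assembly chaperones (PSMG1 to PSMG4, PSMD10 and PAAF1) had 0 of 6 higher and 1 lower in RKO, 2 higher and 0 lower in COLO 201, and 3 higher and 0 lower in H1975. After rescaling the counts were 1 higher and 0 lower in RKO, 1 and 0 in COLO 201, and 2 and 0 in H1975, and with RKO vehicle column 1 also left out 1 was higher and 4 were lower there. PSMG3, part of the complex that starts the alpha ring, had the RKO call at -0.78 (SE 0.21, adjusted p = 0.0088), and its fall was not called after rescaling. PAAF1, which guards cap assembly, rose by 0.20 (SE 0.06, adjusted p = 0.009) in COLO 201 and 0.32 (SE 0.07, adjusted p = 0.0031) in H1975, and only the H1975 call held after rescaling. The activators and inhibitors (PSME1 to PSME4, PSMF1 and ECPAS) had 0 of 6 called in RKO, with 0 at an unadjusted p under 0.05. In COLO 201 5 rose and 0 fell, of which rescaling left 2 higher (PSME2 and ECPAS), and in H1975 1 rose and 2 fell on either scale. In RKO 3 were called higher and 1 lower with vehicle column 1 left out and the columns rescaled. The falls in H1975 were PSME1, at -0.36 (SE 0.06, adjusted p = 0.00054), and PSME2, at -0.26 (SE 0.07, adjusted p = 0.007), the paired subunits of the interferon-induced cap, while PSME2 rose by 0.28 (SE 0.04, adjusted p = 0.00015) in COLO 201. PSME4, which encodes another activator, rose in H1975 by 0.30 (SE 0.08, adjusted p = 0.0095).

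Ubiquitin receptors and enzymes that sit on the cap had 0 of 11 higher and 1 lower in RKO, 4 of 10 higher and 1 lower in COLO 201, and 2 of 10 higher and 0 lower in H1975. After rescaling the counts were 1 higher and 1 lower in RKO, 3 and 1 in COLO 201, and 1 and 0 in H1975. UCHL5, a deubiquitinating enzyme of the cap, fell in RKO, with 4.02 ± 0.862 TPM with doxycycline, against 8.44 ± 1.02 TPM with vehicle and a change of -0.92 (SE 0.18, adjusted p = 0.00089). In COLO 201 it also fell, with a change of -0.30 (SE 0.07, adjusted p = 0.0022), and it changed by 0.13 in H1975, which was not called. UBQLN4, a shuttle for ubiquitin chains, rose by 0.32 (SE 0.04, adjusted p = 1.3e-05) in COLO 201 and 0.27 (SE 0.07, adjusted p = 0.0072) in H1975. ADRM1, a ubiquitin receptor of the cap, rose by 0.36 (SE 0.04, adjusted p = 1.6e-05) in COLO 201.

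NFE2L1, the transcription factor that induces proteasome genes, was not called in RKO at -0.07 or in H1975 at -0.14, and rose by 0.15 (SE 0.04, adjusted p = 0.0038) in COLO 201, where its rescaled change of 0.02 was not called. After rescaling it was called lower in H1975, at -0.18 (adjusted p = 0.026). In RKO its rescaled change was 0.22, not called, and it was called higher with vehicle column 1 also left out, at 0.30 (adjusted p = 0.0005). Among the 8 genes of its pathway, 7 were tested in each line, since DDI1 was listed at 0. Of the 7, 1 rose and 0 fell in RKO, 2 rose and 1 fell in COLO 201, and 4 rose and 0 fell in H1975. After rescaling the counts were 3 higher and 0 lower in RKO, 1 higher and 3 lower in COLO 201, and 4 higher and 1 lower in H1975. The balance turned in COLO 201, as it did for all tested genes there. Of these, 45.9% rose and 15.0% fell before rescaling, and 27.3% rose and 29.7% fell after it. DDI2, the protease that activates NFE2L1, had 20.9 ± 1.73 TPM with doxycycline, against 27.5 ± 1.28 TPM with vehicle in COLO 201, a change of -0.38 (SE 0.06, adjusted p = 0.00017). In H1975 it had 19.1 ± 1.08 TPM with doxycycline, against 14.0 ± 0.404 TPM with vehicle, a change of 0.42 (SE 0.07, adjusted p = 0.00058). NGLY1, which removes the glycans of NFE2L1, rose by 0.34 (SE 0.08, adjusted p = 0.0029) in H1975. MAFF, a partner of NFE2L1 on DNA, rose by 0.70 (SE 0.20, adjusted p = 0.012) in RKO and 0.65 (SE 0.08, adjusted p = 2.3e-05) in H1975.

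VCP, the ATPase that pulls ubiquitinated proteins out of membranes and complexes, rose by 0.26 (SE 0.04, adjusted p = 0.00024) in COLO 201 and was not called in RKO or H1975. Of VCP and its cofactors, 0 of 5 rose and 1 fell in RKO, 3 rose and 2 fell in COLO 201, and 0 rose and 1 fell in H1975. After rescaling 0 were higher and 2 lower in RKO, 2 and 2 in COLO 201, and 0 and 1 in H1975. The gene lower in each line was NPLOC4, a cofactor that binds ubiquitin chains. NPLOC4 had 7.42, 10.7 and 9.53 TPM with doxycycline, against 17.9, 23.4 and 20.5 TPM with vehicle in RKO. Its change was -1.09 (SE 0.20, adjusted p = 0.00042) in RKO, -0.68 (SE 0.04, adjusted p = 1e-07) in COLO 201 and -0.73 (SE 0.07, adjusted p = 5.8e-06) in H1975. Of the ubiquitin genes and the E1 enzymes, 0 of 6 rose and 2 fell in RKO, 4 rose and 1 fell in COLO 201, and 1 rose and 2 fell in H1975. After rescaling 1 was higher and 2 lower in RKO, 2 and 1 in COLO 201, and 1 and 2 in H1975. UBA6, an E1 enzyme that charges ubiquitin, fell in every line, with changes of -0.79 (SE 0.21, adjusted p = 0.0086) in RKO, -1.02 (SE 0.09, adjusted p = 1.5e-06) in COLO 201 and -0.25 (SE 0.09, adjusted p = 0.042) in H1975. UBB, a polyubiquitin gene, fell in RKO and H1975, with changes of -0.76 (SE 0.22, adjusted p = 0.016) and -0.23 (SE 0.07, adjusted p = 0.013), and rose by 0.20 (SE 0.04, adjusted p = 0.002) in COLO 201, where its rescaled change of 0.07 was not called.

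Promoters were read for the members because most of them moved together in COLO 201. RefSeq windows of 250 bases before to 50 after the start were found for 29 of 34 members on GRCh38.p14. Words of known factors were searched on both strands: TGACNNNGC, the core of antioxidant-like elements that NFE2L1 and its partners bind, CCAAT of NF-Y, and CCGGAAG of ETS factors. TGACNNNGC stood in 9 of 29 members, against 16.1% of 27305 genes with a window. CCAAT stood in 15 of 29, against 39.7%, and CCGGAAG in 12 of 29, against 12.2%. The words were chosen with results of these data known, and these shares are a description. PSMC4 is shown as a member with one of the larger rises in COLO 201 and TGACNNNGC on the minus strand, and PSMB5, in the first of the windows RefSeq lists for it, as the member that fell, with CCAAT. The other PSMB5 window, chr14:23034851-23035150, held none of the 3 words and is not shown. The words are in capitals.
PSMC4, chr19:39970915-39971214 (plus strand): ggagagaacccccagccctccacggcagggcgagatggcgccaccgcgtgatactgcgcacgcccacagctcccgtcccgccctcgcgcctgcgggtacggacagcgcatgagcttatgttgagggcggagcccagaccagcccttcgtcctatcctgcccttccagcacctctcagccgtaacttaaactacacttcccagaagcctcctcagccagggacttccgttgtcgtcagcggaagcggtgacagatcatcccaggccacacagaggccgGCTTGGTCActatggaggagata
PSMB5, chr14:23035171-23035470 (minus strand): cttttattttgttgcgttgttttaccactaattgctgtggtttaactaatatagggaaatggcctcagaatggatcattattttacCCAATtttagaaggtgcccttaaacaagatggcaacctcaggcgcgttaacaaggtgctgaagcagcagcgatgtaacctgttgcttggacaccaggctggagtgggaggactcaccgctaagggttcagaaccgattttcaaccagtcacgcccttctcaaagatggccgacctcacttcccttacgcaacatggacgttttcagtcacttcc
Of the members called higher in COLO 201, PSMA4, PSMB3, PSMC4, PSMC5, PSMD1, PSMD3 and PSMD9 held TGACNNNGC, as did PSMD5 and PSMD12, which were not called there. The 34 members lie on 15 chromosomes. GENCODE names pseudogenes for 10 of them, with 13 for PSMC1, 4 for PSMA6 and 3 for PSMA2, so their values may share reads with those copies.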

How the data were processed

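RNA of 18 cultures (3 lines, 6 columns each) was sequenced from TruSeq Stranded mRNA libraries, per the labels' protocols. The authors deposited 1 table of TPM per line, with every column adding up to 1000000. STAR, DESeq2 and GRCh38 are named in the submitters' processing notes, with no versions. TPM keep no count, so the depth of each column is unknown and no counting interval is given. No column of per-sample values was left unused (0 columns), and 28 COLO 201 entries named as dates were left out.

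Genes with a mean of at least 1 TPM in a line were tested on log2(TPM + 1) with limma 3.58.1 (R 4.3.3), with a trend, two-sided, with Benjamini-Hochberg adjustment over all tested genes and calls at adjusted p under 0.05. A joint fit of the 18 columns tested differences between lines, with the same spread of a gene taken for all lines. The fit was tested on simulated data. Tables were made with Python 3.11.15, pandas 2.3.3, numpy 2.4.6 and scipy 1.17.1, and figures with matplotlib 3.10.9. Replicate numbers did not pair the columns throughout, so no block was used. A doxycycline column deviated most like the vehicle column of its own number for columns 1 and 2 of RKO, column 3 of COLO 201 and column 1 of H1975, and not for the others. The p-values measure the spread between these cultures, which may be technical. Levels were not compared between tables.

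The members and lists were chosen with earlier results of these data known. Named members were PSMB5, PSMB6 and PSMB7, up to 4 rising and 4 falling called members with the largest change per line, members called alike in at least 2 lines or called oppositely, and up to 3 members with the smallest adjusted p per contrast between lines, 20 in all. Other members are named only to identify small counts, after their values were seen. Alternatives were other pseudocounts (0.1 and 5) and TPM minimums (none and 5), rescaling, removal of small noncoding or mitochondrial genes, no trend, a replicate block and leaving out each column. Values of some related genes are not reported here.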

Additional observations from a re-analysis of the deposited data

Results flagged for a closer look

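Each value here is a difference of the doxycycline changes between lines (log2 scale, joint limma fit, first line minus second) that passed an adjusted p under 0.05, or a count of members with such a difference. COLO 201 minus RKO was called for 27 of 34 members, with values of 1.1847 for PSMD3, 1.078 for PSMB6, 0.9883 for PSMA7 and 0.4835 for PSMB5. Rescaling ended the PSMB5 call. H1975 minus RKO was called for 26 members, with values of 0.8638 for PSMA2, 0.7523 for PSMB1, 0.7492 for PSMD3 and 0.6158 for PSMB5. COLO 201 minus H1975 was called for 1 member, PSMB4, at 0.5793. Of all genes tested in every line, 48.5%, 41.5% and 7.27% were called in these contrasts, in the same order. The first and second contrasts share the RKO columns, among which vehicle column 1 stood apart. The fit takes the same spread of a gene for all lines, though the members spread more in RKO.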

How the results depend on the processing

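PSMB5 stayed called lower in every line under every alternative run, with changes between -1.72 and -1.29 in RKO, between -1.26 and -1.05 in COLO 201 and between -1.06 and -0.96 in H1975. Its difference from its neighbours was -1.4682 in RKO and -1.2339 in H1975 against PSMB6 and PSMB7, and -1.4817 and -1.4563 in COLO 201 against the other 13 core subunits and all other 33 members. The RKO counts moved most: 1 member rose after rescaling and 3 with vehicle column 1 also left out. The number lower in RKO was 8 with a pseudocount of 0.1, 1 with no TPM minimum, 8 with a minimum of 5 TPM, 9 without small noncoding RNA genes and 17 with vehicle column 1 left out and the columns rescaled. It ran from 1 to 19 when single columns were left out. Of all tested genes, 2075 of 10551 were lower with the pseudocount of 0.1, 16 of 18329 with no minimum and 1313 of 6457 with the minimum of 5 TPM. Without small noncoding RNA genes 1673 of 12246 were lower, and with vehicle column 1 left out and rescaled 3060 of 10279. With single columns left out this ran from 477 of 10651 to 2302 of 10570. In COLO 201 the number lower was 3 after rescaling and 1 to 2 with single columns left out. In H1975 the number higher was 7 without mitochondrial genes and 4 to 11 with single columns left out. Of all tested genes, 3435 of 11558 were lower in COLO 201 after rescaling, and 1400 of 11584 to 1964 of 11542 with single columns left out. In H1975 2227 of 12539 were higher without mitochondrial genes, and 1618 of 12347 to 3324 of 12370 with single columns left out. The replicate block gave 11 lower in RKO and 6 higher in H1975, although samples of the same number did not all deviate together (correlations of -0.42 to 0.29). With that block, 2071 of all 10551 tested genes were lower in RKO and 2209 of 12359 higher in H1975. Between lines, H1975 minus RKO was called for 17 members after rescaling, and COLO 201 minus H1975 for 7 after rescaling, 2 with a pseudocount of 5 and 2 without RKO vehicle column 1. The genes called in these settings, in the same order, were 3178 of 9257, 2448 of 9257, 1300 of 9275 and 1592 of 9146.

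Of 857 values of single members under an alternative, 737 kept direction and call, 59 lost the call, 23 gained it and 38 changed sign. Rescaling gave the opposite sign in RKO for PSMA5 (0.0190), PSMC2 (0.0805), PSMC4 (0.1326), PSMD12 (0.0704), PSMD14 (0.1996) and PSMD2 (0.2921), in COLO 201 for PSMA6 (-0.0058) and PSMD12 (-0.0566), and in H1975 for PSMA6 (-0.0244), PSMB4 (-0.0206) and PSMD3 (-0.0138). Without small noncoding RNA genes the RKO values were 0.0444 for PSMC2, 0.0972 for PSMC4, 0.0342 for PSMD12, 0.1643 for PSMD14 and 0.2546 for PSMD2. With vehicle column 1 left out and rescaled they were 0.0252 for PSMA5, 0.1598 for PSMC4, 0.0032 for PSMD12, 0.1644 for PSMD14 and 0.1598 for PSMD2. Without mitochondrial genes the H1975 values were -0.0363 for PSMA6, -0.0325 for PSMB4, -0.0009 for PSMC3 and -0.0257 for PSMD3. With single columns left out, the ranges that crossed 0 were -0.158 to 0.1219 for PSMD2, -0.2593 to 0.0179 for PSMD14 and -0.0466 to 0.2258 for PSMB7 in RKO, -0.0129 to 0.0778 for PSMB4 and -0.0313 to 0.0443 for PSMA6 in H1975, and -0.0078 to 0.1669 for PSMD12 in COLO 201. The cause was not tested. TPM keep no depth, so what depth limits cannot be given.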
